A study of Homo sapiens with 6 samples.

Results

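The collagen genes are the protein-coding genes whose symbol has the form COL, a number, A and a number. Of the 61853 rows of the deposited table, 44 carried such a symbol, and every one of them is accounted for here. They were grouped by the kind of assembly their chains form: 11 fibrillar, 6 basement membrane network, 5 beaded filament, 3 short-chain network, 1 anchoring fibril, 10 FACIT (fibril-associated collagens with interrupted triple helices), 4 transmembrane, 2 multiplexin and 2 other genes. The question asked of them is how their RNA differed between H9 cells (a human embryonic stem cell line in wide use) before and after differentiation toward neurons of the hypothalamic arcuate nucleus. On day 0 the cells were near-confluent H9 cultures on Matrigel, a basement membrane extract. On day 30 they had received SHH, purmorphamine, SB431542 and LDN-193189 in KSR and then N2 medium, followed by B-27 and DAPT, a passage with ROCK inhibitor, and B-27 with BDNF. Each day had 3 libraries of total RNA, depleted of ribosomal RNA and prepared with a stranded kit. Every library came from 1 cell line, and nothing in the labels says that the 3 libraries of a day came from separate cultures, so p-values measure the spread between these libraries, which may be technical.

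Collagens are trimers of chains that wind into a triple helix. Fibrillar types I, II, III, V and XI build the banded fibres of connective tissue, type IV forms the sheet of basement membranes, and type VI makes beaded microfilaments around cells. FACIT chains sit on fibrils, transmembrane collagens stay anchored in the cell membrane, and multiplexins lie at basement membranes. In the brain the fibrillar types are known chiefly from meninges and vessel walls, while neurons make several of the non-fibrillar types.

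The libraries held 5013643 to 12924842 counts, the fewest in day 30 replicate 3. Levels below are CPM, that is counts scaled to library totals of equal size with TMM normalization. Log2-scale correlations lay between 0.97 and 0.985 for libraries of 1 day and between 0.594 and 0.614 across days. All 7 pluripotency markers were lower on day 30, all 8 general neuron markers were higher, and of the arcuate markers 6 were higher and GAL was lower. The summed neuron markers stood at 6847, 6518 and 5459 CPM in day 30 replicates 1, 2 and 3. Because these are bulk libraries, fewer cells of a type and less RNA per cell cannot be told apart in any value below.

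Of the 44 genes, 39 had enough counts to be tested. By edgeR's quasi-likelihood test with Benjamini-Hochberg adjustment over all 18040 genes tested, 14 were higher on day 30 and 16 were lower at an adjusted p below 0.05, and 9 did not pass. Over all genes tested, 39.8% were higher, 36.8% were lower and 76.6% changed in either direction, so the collagens were called about as often as genes in general. Their median log2 change (day 30 minus day 0) was -0.51, against 0.08 for all genes tested. The CPM ranges of the 2 days were separate for 24 of the 39 genes. That separation was found in 79.5% of all genes tested.

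The classes differed in their counts. Of the 10 fibrillar genes tested, 6 rose and 1 fell, with a median log2 change of 1.19. Among the 6 basement membrane genes 1 rose and 4 fell, with a median of -2.41, and among the 9 FACIT genes tested 2 rose and 5 fell, with a median of -1.10. The 4 transmembrane genes split into 1 that rose and 3 that fell, with a median of -3.08. Differences between classes were not tested.

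The day 30 libraries differed from one another in collagens more often than in other genes. All collagen genes together held 0.237%, 0.287% and 0.254% of the counts on day 0, against 0.14%, 0.303% and 0.878% in day 30 replicates 1, 2 and 3. The mean share was 0.259% ± 0.0251 (SD, n = 3) on day 0 and 0.44% ± 0.388 (SD, n = 3) on day 30, and the ranges overlapped. Replicate 1 of day 30 was below every day 0 library and replicate 3 was above every other library. Fibrillar genes carried most of that spread, with 0.0448%, 0.123% and 0.575% of the counts in the 3 day 30 libraries. The transmembrane collagens held a nearly constant share of 0.00393%, 0.00413% and 0.00419% in the same libraries. Most of that share was COL25A1, at 36, 36.9 and 33.2 CPM. The low COL23A1 (1.23, 0.755 and 4.15 CPM) and COL17A1 (0.514, 1.28 and 0.377 CPM) were not steady.

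**Figure D1:**
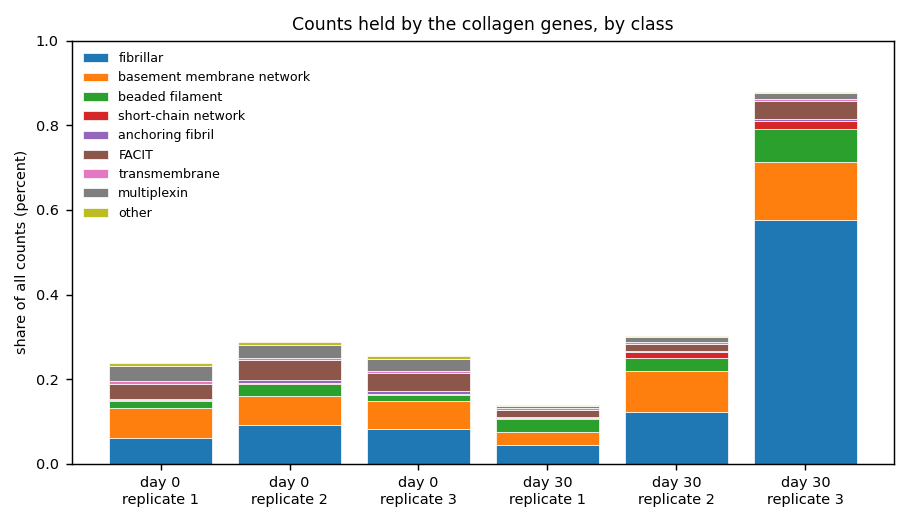
Share of each library's counts (percent) held by the collagen genes, stacked by class, for the 3 day 0 and the 3 day 30 libraries. The whole bar ranges from 0.237% to 0.287% on day 0, and day 30 replicate 3 reaches 0.878%, of which fibrillar genes hold 0.575%.

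Gene by gene, day 30 replicate 3 was compared with the mean of replicates 1 and 2 for the 37 collagens with at least 20 counts over the 3 libraries. The ratio was above 2 for 19 of them (51.4%), against 2.99% of 17210 genes with as many counts. One gene, COL17A1, was below 0.5 with a ratio of 0.42, against 1.42% of genes. The median ratio was 2.16 for the collagens and 0.992 for all genes. COL6A3 had a ratio of 154, COL5A3 of 28.9, COL3A1 of 19.5, COL1A1 of 10.5 and COL1A2 of 9.24. A different set lay near 1, among them COL9A3 (ratio 1.08), COL2A1 (ratio 0.992), COL4A6 (ratio 0.986) and COL9A2 (ratio 0.968).

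**Figure D2:**
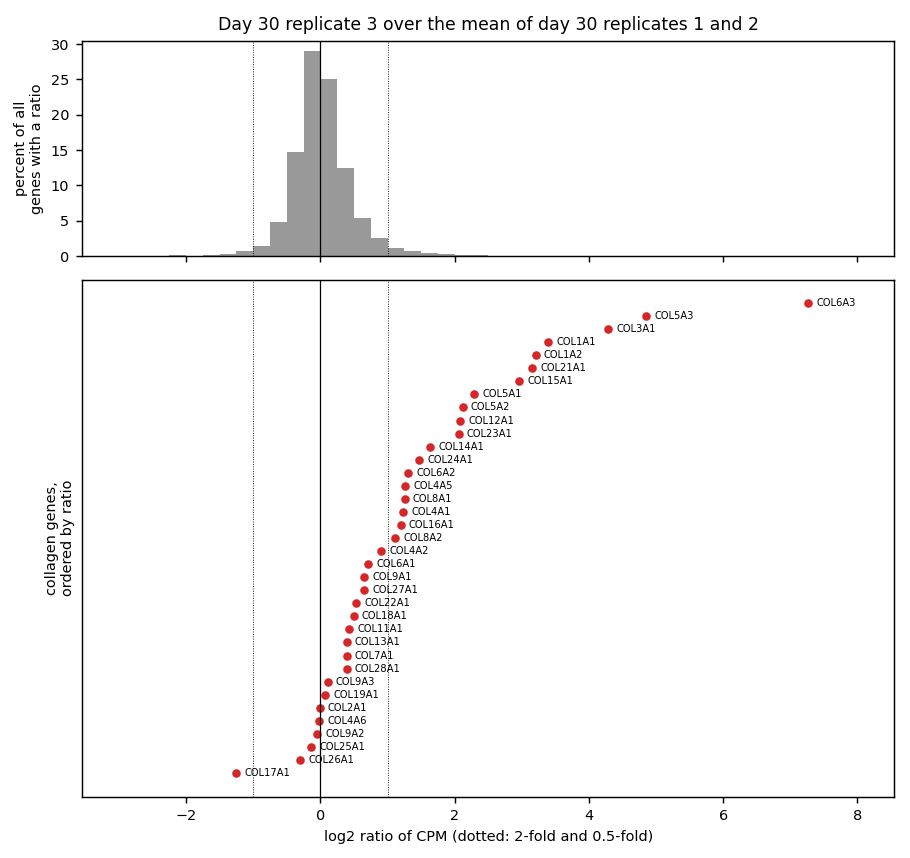
Ratio of day 30 replicate 3 to the mean of day 30 replicates 1 and 2 on a log2 axis for each of the 37 collagens with at least 20 day 30 counts (lower panel), below a histogram of the ratio over 17210 genes (upper panel, percent of genes). The collagen ratios run from 0.42 to 154, while the median of all genes is 0.992.

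The libraries also differed in replicate 1, which had the lowest of the day 30 values for 24 of the 37 genes (64.9%, against 33.3% of all genes). The highest day 30 library was more than 2-fold above the lowest for 23 of the 37 genes (62.2%, against 9.12%). On day 0 this held for 10 of 36 genes (27.8%, against 11.6%).

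Markers of other cell types were read in the same libraries, against the 38.3% of all genes with at least 20 day 30 counts that were highest in replicate 3. The 11 markers of fibroblasts and meninges, cells that produce fibrillar collagen, summed to 41.1, 48.8 and 99.1 CPM on day 30 and to between 9.94 and 20.7 CPM on day 0. ALDH1A2 alone held 29.8, 32.3 and 29.1 CPM of the day 30 sums, and without it the list summed to 11.2, 16.5 and 70 CPM on day 30 and to 9.69, 18.5 and 20.7 CPM on day 0. Only replicate 3 was then above the day 0 range. Of the 7 markers with at least 20 day 30 counts, 5 were highest in replicate 3. DCN, which encodes decorin, stood at 0.514, 0.378 and 19.1 CPM on day 30, and PDGFRA at 0.412, 0.755 and 12.1 CPM, from 6.25 to 12.5 CPM on day 0. TBX18 stood at 0.617, 3.32 and 3.21 CPM on day 30, and PRRX1 at 8.54, 6.04 and 13.6 CPM. TWIST1 and TWIST2 were at 0 in day 30 replicates 1 and 2. They had 6 and 1 counts in replicate 3, against 74 and 49 counts on day 0. SLC22A6 was at 0 in every library. Smooth muscle and pericyte markers summed to 60.6, 123 and 210 CPM on day 30 and to between 718 and 975 CPM on day 0. TAGLN held 478, 575 and 734 CPM of the day 0 sums and 20, 59.5 and 87 CPM of the day 30 sums. PDGFRB stood at 2.88, 10.9 and 55.1 CPM on day 30. Of 6 markers with at least 20 day 30 counts, 5 were highest in replicate 3, all but CNN1 (12.8, 17.1 and 15.1 CPM). MYH11 had 1 count on day 0 and 0 on day 30. Neural crest and Schwann cell markers summed to 15.2, 11.9 and 24.5 CPM on day 30 and to between 98.1 and 160 CPM on day 0. Their 3 markers with at least 20 counts were highest in replicate 3, SOX10 and TFAP2B had a few counts only, and FOXD3 was at 0 on day 30. Chondrocyte markers summed to 76.1, 92.2 and 119 CPM on day 30, from 25.6 to 31 CPM on day 0, with 4 of 8 highest in replicate 3. HAPLN1 alone held 3.09, 15.2 and 49.4 CPM of these day 30 sums and carried their climb toward replicate 3. SOX5 held 43.3, 44.9 and 35.3 CPM of them, lowest in replicate 3. Endothelial markers stood at 4.01, 5.51 and 7.36 CPM on day 30, against 196 to 271 CPM on day 0. KDR, at 150, 195 and 227 CPM, and TEK, at 41.1, 41.4 and 38.5 CPM, held nearly all of the day 0 sums. PECAM1, CLDN5, VWF and ERG had at most 6 counts in any library of either day. Skeletal muscle markers summed to 20.5, 19.5 and 41.1 CPM on day 30 and to between 296 and 320 CPM on day 0. TTN alone held 15.4, 13.7 and 36 CPM of the day 30 sums. ACTA1 stood at 2.26, 2.95 and 1.51 CPM on day 30, lowest in replicate 3. Of the 4 markers with at least 20 day 30 counts, 2 were highest in replicate 3. MYOD1, MYOG and MYF5 were at 0 in every library. Sums of the remaining non-neuronal lists did not stand out in replicate 3. Astroglia and radial glia markers summed to 540, 731 and 677 CPM on day 30, but VIM alone held 533, 725 and 661 CPM of these sums. The sum therefore says little about the rest of that list. SLC1A3 stood at 2.98, 1.81 and 9.81 CPM and FABP7 at 2.68, 2.27 and 3.4 CPM on day 30, both highest in replicate 3. Floor plate and notochord markers summed to 10.1, 10.4 and 8.68 CPM. Choroid plexus and ependyma markers differed little between the day 30 libraries. The part of these cell types in the collagen values was not tested.

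Without day 30 replicate 3, 10 collagens were higher and 21 were lower, against 38.7% and 35.5% of the 18849 genes then tested. COL1A1, COL1A2, COL4A2 and COL11A1 no longer passed. COL5A2, COL5A3, COL6A3, COL12A1 and COL16A1 then passed as lower. COL6A2 did not pass either way but changed sign, from a log2 change of 0.46 to -0.08. Leaving out other libraries also ended the weaker calls. COL1A2 did not pass without any 1 of the day 0 libraries (adjusted p of 0.11, 0.0676 and 0.0814 without replicates 1, 2 and 3), nor did COL4A2 (0.0706, 0.0604 and 0.0629). COL4A2 also missed the threshold without day 30 replicate 2 (adjusted p = 0.0554). COL11A1 did not pass without day 0 replicate 1 (adjusted p = 0.118), day 0 replicate 2 (0.0772) or day 30 replicate 2 (0.0842).

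**Figure D3:**
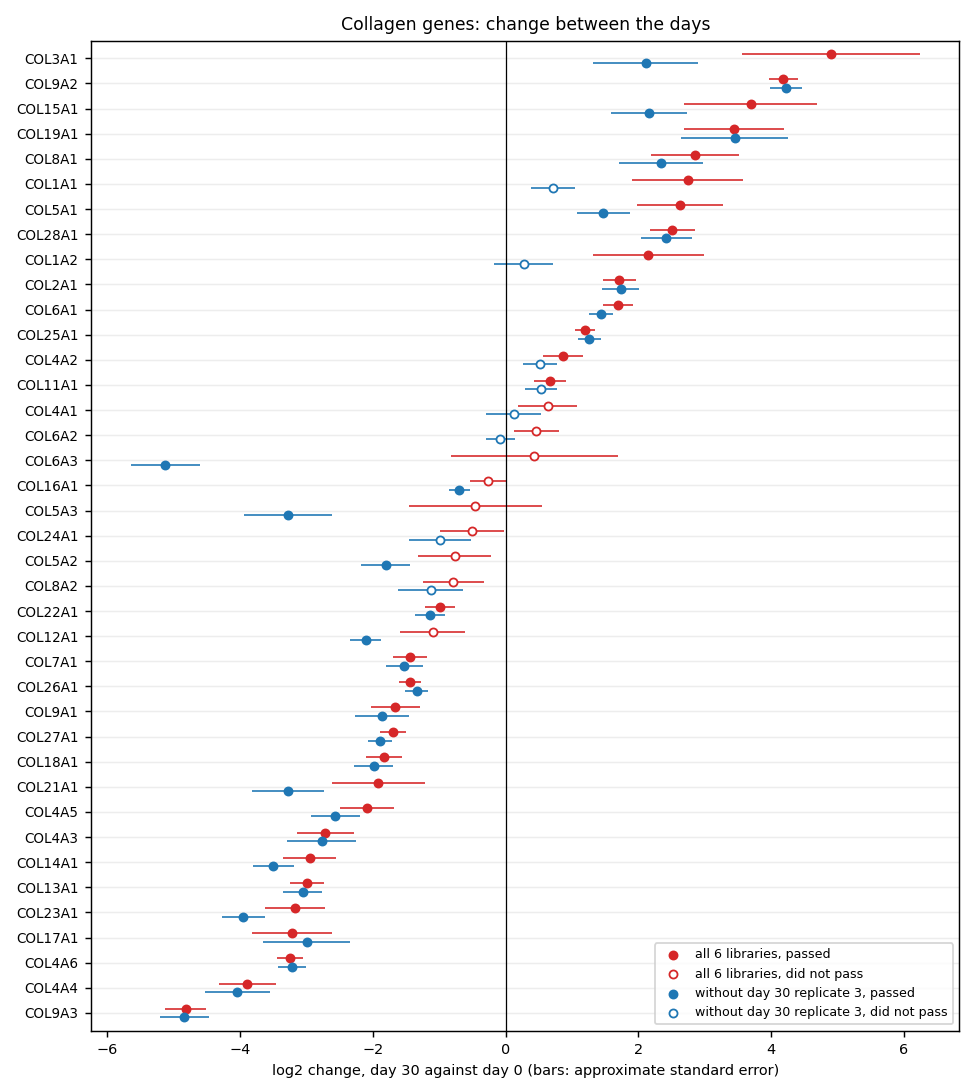
Log2 change (day 30 minus day 0) of each tested collagen in all 6 libraries (red) and without day 30 replicate 3 (blue), with bars of 1 standard error and filled points where the test passed. The pairs of points nearly coincide for COL9A2 (4.18 and 4.22) and COL9A3 (-4.82 and -4.84) and lie far apart for COL6A3 (0.43 and -5.13) and COL5A3 (-0.46 and -3.28).

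COL1A1 and COL1A2, the chains of type I collagen, rose over all 6 libraries, and neither change passed without day 30 replicate 3. COL1A1 (chromosome 17, 50183289 to 50201632, hg38) stood at 95.1, 91.7 and 118 CPM on day 0 and at 82.7, 245 and 1717 CPM on day 30. Replicate 3 was far above the others, and replicate 1 of day 30 was below all day 0 libraries. The log2 change was 2.74 ± 0.83 (SE), with an adjusted p of 0.0114, and it was 0.71 with an adjusted p of 0.0758 without replicate 3. COL1A2 (chromosome 7, 94394561 to 94431232) stood at 113, 197 and 163 CPM on day 0 and at 69.8, 305 and 1732 CPM on day 30. Its day 30 libraries had the same order as those of COL1A1, and its ranges overlapped. Its log2 change was 2.15 ± 0.83 (adjusted p = 0.0347), or 0.27 (adjusted p = 0.601) without replicate 3. Per kilobase of exon, the ratio of COL1A1 to COL1A2 was 0.958, 0.528 and 0.825 on day 0 and 1.35, 0.912 and 1.13 on day 30, so the 2 chains kept within a factor of about 2 of each other while each ranged widely on day 30.

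COL3A1, the single chain of type III collagen, had the largest rise of the fibrillar genes. COL3A1 (chromosome 2, 188974320 to 189012746) stood at 1.4, 25.1 and 5.41 CPM on day 0 and at 16.1, 71.4 and 853 CPM on day 30. The ranges overlapped, since day 0 replicate 2 lay above day 30 replicate 1. The log2 change was 4.90 ± 1.34 (adjusted p = 0.00632), and it was 2.11 (adjusted p = 0.0333) without day 30 replicate 3.

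The chains of type V collagen, which sets fibril diameter, did not move together. COL5A1 stood at 27.9, 29.9 and 33.7 CPM on day 0 and at 35.1, 131 and 407 CPM on day 30, with every day 30 library above day 0. It rose by a log2 change of 2.63 ± 0.65 (adjusted p = 0.0036), or 1.47 (adjusted p = 0.00673) without replicate 3. COL5A2, the fibrillar gene of the highest CPM on day 0, stood at 186, 402 and 333 CPM on day 0 and at 50.5, 121 and 374 CPM on day 30. Replicates 1 and 2 of day 30 were below all day 0 libraries, and replicate 3 was within their range. Its log2 change of -0.77 ± 0.55 did not pass (adjusted p = 0.227), and it was -1.81 (adjusted p = 0.00135) without replicate 3. COL5A3 stood at 3.31, 4.79 and 3.57 CPM on day 0 and at 0, 0.68 and 9.81 CPM on day 30. Its log2 change of -0.46 (adjusted p = 0.688) was -3.28 (adjusted p = 0.00111) without replicate 3 and 0.20 without replicate 1. The ratio of COL5A1 to COL5A2 per kilobase was 0.0998, 0.0495 and 0.0675 on day 0 and 0.463, 0.718 and 0.726 on day 30, higher in each day 30 library than in any day 0 library.

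The other fibrillar genes were steadier across the day 30 libraries. COL2A1, the chain of cartilage collagen, stood at 7.9, 3.92 and 4.31 CPM on day 0 and at 18.1, 17.3 and 17.6 CPM on day 30. Each day 30 library was above day 0, and the log2 change was 1.71 ± 0.25 (adjusted p = 9.13e-05). COL11A1, whose product copolymerizes with types II and V, stood at 122, 162 and 202 CPM on day 0 and at 164, 297 and 311 CPM on day 30. Its ranges overlapped, and its log2 change of 0.67 ± 0.24 passed with all libraries (adjusted p = 0.0263) but not without day 30 replicate 3 (0.53, adjusted p = 0.0677). COL27A1, a fibrillar gene expressed in cartilage, fell from 44.4, 40.7 and 34.9 CPM to 9.57, 11.6 and 16.6 CPM, with a log2 change of -1.70 ± 0.20 (adjusted p = 1.45e-05). COL24A1 was below 3 CPM in every library and did not pass, with a log2 change of -0.51 (adjusted p = 0.352). COL11A2 had 0 counts in every library. It lies on chromosome 6 (33162681 to 33192499) within the major histocompatibility complex, where 167 of 181 protein-coding genes of that stretch had at most 10 counts in every library (92.3%, against 24.6% elsewhere), so its 0 cannot be read as absent expression.

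**Figure D4:**
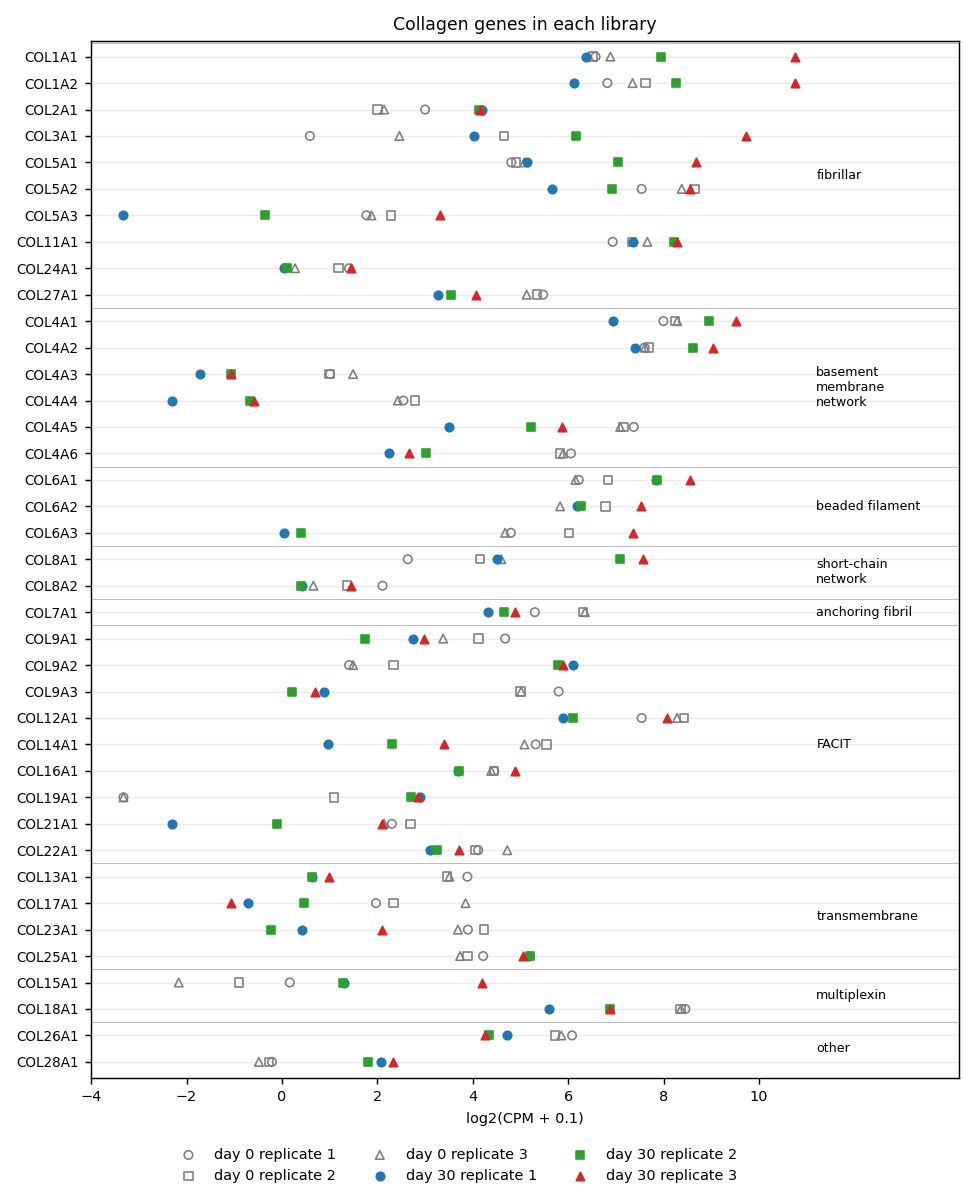
Level of each of the 39 tested collagens (rows, grouped by class) in the 3 day 0 libraries (open symbols) and the 3 day 30 libraries (filled symbols), as log2 of CPM with a small constant added, as the axis states. Type I chains reach 1717 and 1732 CPM in day 30 replicate 3, while COL9A2 stays between 54.8 and 68.4 CPM in all 3 day 30 libraries.

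The 6 genes of type IV collagen lie as head-to-head pairs on 3 chromosomes, and they are shown first by the sequence between their starts. The starts of COL4A1 and COL4A2 on chromosome 13 leave 126 bases between them in RefSeq (GRCh38.p14), those of COL4A4 and COL4A3 on chromosome 2 leave 418, and those of COL4A6 and COL4A5 on the X chromosome leave 379. A search on both strands found 1 CCAAT and 1 GGGCGG between COL4A1 and COL4A2, 2 GGGCGG between COL4A4 and COL4A3, and 3 CCAAT between COL4A6 and COL4A5. Annotated exons of COL4A1 and COL4A2 cover 124 of the 126 bases between their starts. Of these 126 bases, 30 around the CCAAT are shown, and the GGGCGG lies outside them. They are shown because the day 30 libraries of both genes had the same order. The stretch before COL4A5 is shown because COL4A5 and COL4A6 both fell. Capitals mark CCAAT on either strand, and both read 5′ to 3′ on the plus strand, COL4A1-COL4A2 at chr13:110307167-110307196 and COL4A5 at chrX:108439588-108439837.
COL4A1-COL4A2: gggccgagctccCCAATttgttggcgctgc
COL4A5: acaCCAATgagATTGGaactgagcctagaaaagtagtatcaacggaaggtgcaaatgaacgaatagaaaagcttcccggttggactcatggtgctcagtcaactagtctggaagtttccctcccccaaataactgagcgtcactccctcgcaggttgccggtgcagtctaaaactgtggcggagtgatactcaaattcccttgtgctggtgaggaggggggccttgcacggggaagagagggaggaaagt

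COL4A1 and COL4A2, the chains of nearly all basement membranes, followed each other across libraries. COL4A1 (chromosome 13, 110148963 to 110307233, minus strand) stood at 255, 303 and 312 CPM on day 0 and at 123, 498 and 731 CPM on day 30. COL4A2 (chromosome 13, 110305812 to 110513209, plus strand) stood at 194, 207 and 195 CPM and at 170, 390 and 523 CPM. For both genes replicate 1 of day 30 was below day 0 and replicates 2 and 3 were above it. The log2 change of COL4A1 was 0.63 ± 0.45 and did not pass (adjusted p = 0.223), and it was 1.06 (adjusted p = 9.62e-05) without day 30 replicate 1. That of COL4A2 was 0.86 ± 0.30 (adjusted p = 0.0241), and it did not pass without day 30 replicate 3 (0.52, adjusted p = 0.0937).

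The 4 genes for chains of specialised basement membranes, known from kidney and other sites, all fell. COL4A6 (chromosome X, 108155607 to 108439497) stood at 66.5, 56.7 and 59.3 CPM on day 0 and at 4.63, 8.01 and 6.23 CPM on day 30. It fell by 3.25 ± 0.19 on the log2 scale (adjusted p = 7.02e-08). COL4A5 (chromosome X, 108439844 to 108697545) stood at 166, 143 and 136 CPM and at 11.3, 37.2 and 58.3 CPM, a log2 change of -2.09 ± 0.41 (adjusted p = 0.000785). All day 30 libraries were below all day 0 libraries for both genes, and the day 30 libraries of COL4A5 had the order of the type I chains, which those of COL4A6 did not. Per kilobase, COL4A5 to COL4A6 was 1.96, 1.97 and 1.79 on day 0 and 1.91, 3.64 and 7.33 in day 30 replicates 1, 2 and 3. COL4A4, the largest fall of the class, stood at 5.74, 6.83 and 5.29 CPM on day 0 and at 0.103, 0.529 and 0.566 CPM on day 30, or 135 counts against 11. Its ranges were separate, with a log2 change of -3.89 ± 0.43 (adjusted p = 1.09e-05). COL4A3 fell from 50 counts to 9, with a log2 change of -2.72 ± 0.43 (adjusted p = 0.000167).

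Of the type VI chains, which assemble as beaded filaments, COL6A1 rose in every library. COL6A1 (chromosome 21, 45981737 to 46005050) stood at 74.5, 114 and 71 CPM on day 0 and at 230, 231 and 377 CPM on day 30, with separate ranges. The mean was 86.6 ± 24.1 CPM on day 0 and 280 ± 84.7 CPM on day 30 (SD, n = 3), and the log2 change was 1.69 ± 0.23 (adjusted p = 5.7e-05). COL6A2 stood at 74.6, 110 and 56.8 CPM on day 0 and at 72.3, 77.3 and 185 CPM on day 30. Its ranges overlapped and its log2 change of 0.46 ± 0.34 did not pass (adjusted p = 0.245). The ratio of COL6A1 to COL6A2 per kilobase was 1.01, 1.05 and 1.26 on day 0 and 3.21, 3.01 and 2.06 on day 30.

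COL6A3, the largest of these 3 chains, gave the sharpest division among the day 30 libraries. COL6A3 (chromosome 2, 237324003 to 237414375) stood at 27.7, 64.7 and 25.5 CPM on day 0 and at 0.926, 1.21 and 165 CPM on day 30. Replicates 1 and 2 of day 30 lay far below day 0 and replicate 3 above it. With all libraries the log2 change was 0.43 ± 1.26 (adjusted p = 0.769), and without replicate 3 it was -5.13 ± 0.52 (adjusted p = 9.13e-06). Per kilobase, COL6A3 stood to COL6A1 at 0.101, 0.154 and 0.0976 on day 0, at 0.00109 and 0.00142 in day 30 replicates 1 and 2, and at 0.119 in replicate 3. COL6A5, with 4 counts on day 0 and 14 on day 30, and COL6A6, with 7 and 6, were not tested.

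**Figure D5:**
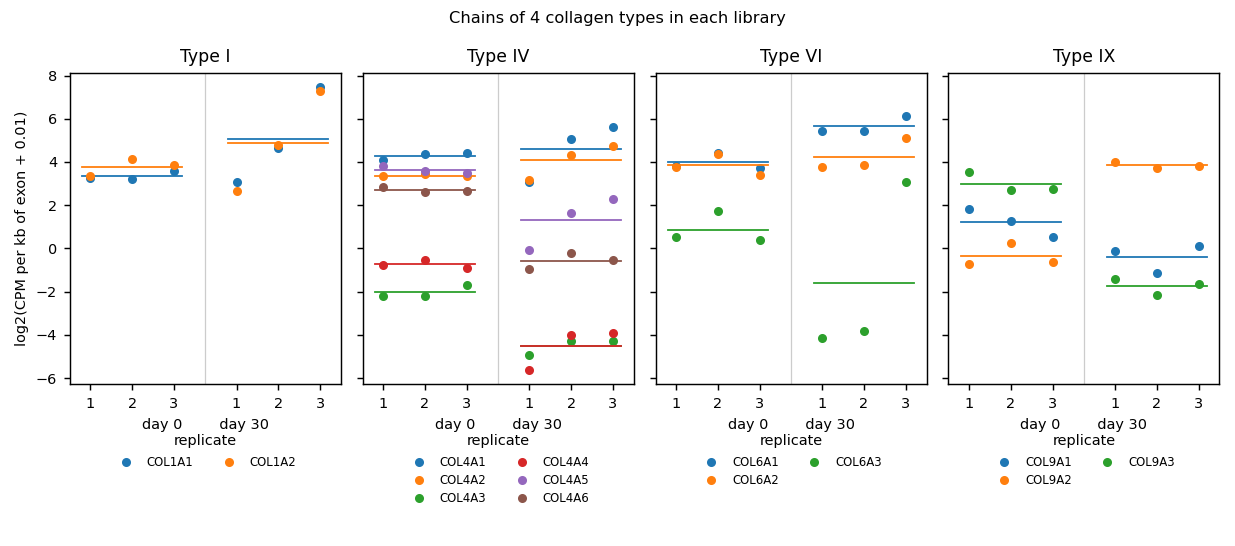
Level of the chains of types I, IV, VI and IX in each library (points, log2 of CPM per kilobase of exon with a small constant added, as the axis states), with a horizontal line at the mean of the 3 log2 values of a day. COL9A2 lies below COL9A3 on day 0 and above it on day 30, and COL6A3 is low in day 30 replicates 1 and 2 but not in replicate 3.

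The 3 chains of type IX collagen, a FACIT that decorates cartilage fibrils, went in opposite directions. A stretch before the RefSeq start of COL9A2 is shown because this gene had the largest rise of the FACIT genes. The window of 250 bases before that start lies within the annotated span of the gene. The window holds 58 exon bases of COL9A2 and 3 GGGCGG. Only its longest run without annotated exon is shown. It reads 5′ to 3′ on the minus strand at chr1:40317389-40317536, ends 103 bases before the RefSeq start, and has 1 GGGCGG, in capitals.
COL9A2: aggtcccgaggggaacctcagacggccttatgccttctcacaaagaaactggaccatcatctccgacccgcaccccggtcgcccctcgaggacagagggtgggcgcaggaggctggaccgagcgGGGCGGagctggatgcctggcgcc

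COL9A2 (chromosome 1, 40300487 to 40317813) stood at 2.55, 4.94 and 2.71 CPM on day 0 and at 68.4, 54.8 and 59.6 CPM on day 30. The 3 day 30 libraries were close together and 18.1-fold above day 0, with a log2 change of 4.18 ± 0.22 (adjusted p = 3.49e-08). COL9A3 (chromosome 20, 62816244 to 62841159) stood at 55.6, 31.8 and 32.2 CPM on day 0 and at 1.75, 1.06 and 1.51 CPM on day 30. It was 28.3-fold lower on day 30, with a log2 change of -4.82 ± 0.31 (adjusted p = 1.42e-07). COL9A1 stood at 25.5, 17.3 and 10.3 CPM and at 6.59, 3.25 and 7.74 CPM, a log2 change of -1.66 ± 0.37 (adjusted p = 0.00185). Per kilobase, COL9A2 stood to COL9A3 at 0.0527, 0.178 and 0.0964 on day 0 and at 44.9, 59.4 and 45.3 on day 30, so the more abundant of these 2 chains changed from COL9A3 to COL9A2 in every library.

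Among the other FACIT genes, COL14A1, COL21A1 and COL22A1 fell and COL19A1 rose. COL14A1 stood at 39.8, 46.6 and 33.8 CPM on day 0 and at 1.85, 4.83 and 10.4 CPM on day 30 (log2 change -2.95 ± 0.40, adjusted p = 4.88e-05). COL22A1, found at tissue junctions such as that of muscle and tendon, fell by 0.99 on the log2 scale (adjusted p = 0.00232). COL21A1 stood at 4.84, 6.39 and 4.31 CPM on day 0 and at 0.103, 0.831 and 4.15 CPM on day 30. Its log2 change was -1.92 (adjusted p = 0.0279), or -3.28 (adjusted p = 0.000313) without day 30 replicate 3, and it did not pass without day 0 replicate 2 (-1.75, adjusted p = 0.0789) or day 30 replicate 2 (-1.51, adjusted p = 0.115). COL19A1, which is expressed in neurons, stood at 0, 2.03 and 0 CPM on day 0, its 14 counts all in replicate 2, and at 7.31, 6.42 and 7.17 CPM on day 30. Its log2 change was 3.44 ± 0.75 (adjusted p = 0.00159), and DESeq2 gave an adjusted p of 0.142. It shares 70 exon bases with LMBRD1 on the opposite strand, and the sources used here do not say whether the counting used strand.

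COL12A1, the FACIT gene of the highest CPM on both days, stood at 186, 345 and 311 CPM on day 0 and at 59.2, 68.7 and 270 CPM on day 30. Replicates 1 and 2 of day 30 were below every day 0 library, and replicate 3 was within the day 0 range. The log2 change of -1.10 ± 0.49 did not pass (adjusted p = 0.0626), and it was -2.11 (adjusted p = 1.78e-05) without replicate 3 and -1.36 (adjusted p = 0.0431) without day 0 replicate 1. COL16A1 had a log2 change of -0.26 (adjusted p = 0.417), or -0.70 (adjusted p = 0.00227) without replicate 3. COL20A1 had 13 counts on day 0 and 7 on day 30 and was not tested.

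The transmembrane collagens had separate ranges on the 2 days for all 4 genes. COL25A1, expressed in neurons and known as the precursor of a component of amyloid plaques, stood at 18.5, 14.7 and 13.2 CPM on day 0 and at 36, 36.9 and 33.2 CPM on day 30. It rose 2.29-fold, a log2 change of 1.20 ± 0.15 (adjusted p = 3.26e-05), with little spread between libraries. COL23A1 fell from 14.8, 18.7 and 12.8 CPM to 1.23, 0.755 and 4.15 CPM (log2 change -3.17 ± 0.45, adjusted p = 7.73e-05). COL13A1, known from the neuromuscular junction, fell from 14.7, 10.9 and 11.3 CPM to 1.44, 1.44 and 1.89 CPM (log2 change -2.99 ± 0.26, adjusted p = 1.5e-06). COL17A1, of epithelial hemidesmosomes, stood at 3.82, 4.94 and 14.3 CPM on day 0 and at 0.514, 1.28 and 0.377 CPM on day 30 (log2 change -3.22 ± 0.60, adjusted p = 0.000524).

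The multiplexins went opposite ways. COL18A1, the precursor of endostatin, stood at 351, 326 and 329 CPM on day 0 and at 48.3, 118 and 117 CPM on day 30. Every day 30 library was below day 0, with a log2 change of -1.83 ± 0.27 (adjusted p = 0.000105). It shares 1401 exon bases with SLC19A1 on the opposite strand, which had 49 to 135 counts in each library. COL15A1 stood at 1.02, 0.436 and 0.123 CPM on day 0 and at 2.37, 2.34 and 18.3 CPM on day 30, or 12 counts against 151. Every day 30 library was above day 0, and replicate 3 was far above the others. Its log2 change was 3.69 ± 1.00 (adjusted p = 0.00596), or 2.16 (adjusted p = 0.006) without replicate 3.

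COL7A1, which forms the anchoring fibrils below epithelia, fell from 39.3, 79.2 and 81.5 CPM to 19.9, 25.2 and 29.4 CPM, with a log2 change of -1.44 ± 0.26 (adjusted p = 0.000417). COL8A1, a short-chain collagen of vessel walls and the eye, stood at 6.12, 17.7 and 24.1 CPM on day 0 and at 22.5, 136 and 189 CPM on day 30. Day 30 replicate 1 lay within the day 0 range, and the log2 change was 2.85 ± 0.66 (adjusted p = 0.00241). COL8A2 did not pass (log2 change -0.79, adjusted p = 0.137), except without day 0 replicate 3 (-1.12, adjusted p = 0.0427). COL10A1, a marker of hypertrophic cartilage, had 2 counts on each day and was not tested.

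Of the 2 genes outside these classes, COL26A1 fell and COL28A1 rose. COL26A1 stood at 67.6, 52.9 and 57.8 CPM on day 0 and at 26.2, 20.2 and 18.9 CPM on day 30, with a log2 change of -1.44 ± 0.16 (adjusted p = 9.63e-06). COL28A1 (chromosome 7, 7356203 to 7535853), known from peripheral nerve, stood at 0.765, 0.727 and 0.615 CPM on day 0 and at 4.12, 3.4 and 4.91 CPM on day 30. Every day 30 library was above day 0, a log2 change of 2.51 ± 0.34 (adjusted p = 5.75e-05). The 250 bases before its RefSeq start are shown because its rise was steady in all 3 libraries. They read 5′ to 3′ on the minus strand at chr7:7535874-7536123, with the 1 CCAAT in capitals.
COL28A1: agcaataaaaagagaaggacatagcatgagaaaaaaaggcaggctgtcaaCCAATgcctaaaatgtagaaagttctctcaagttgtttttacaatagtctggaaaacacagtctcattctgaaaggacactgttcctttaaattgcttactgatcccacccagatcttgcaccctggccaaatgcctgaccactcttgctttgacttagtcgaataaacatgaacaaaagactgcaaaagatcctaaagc

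RefSeq promoter entries matched 32 of the 44 genes, some with several starts, which gave 44 windows of 250 bases before a start. CCAAT on either strand was found in 12 of the 44 windows (27.3%), against 32% of all 34943 windows of that length. GGGCGG was found in 24 windows (54.5%, against 42.5%) and TATAAA in 8 (18.2%, against 10.8%). These are matches of letters only.

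Compared with one another per kilobase of exon, the collagens changed order between the days. On day 0 COL5A2 led at 41.2 CPM per kilobase, followed by COL18A1 at 39.3, COL12A1 at 22.5, COL4A1 at 19.7 and COL26A1 at 18.8. The first 2 overlapped, since COL5A2 ran from 25 to 54 and COL18A1 from 38.3 to 41.2. On day 30 COL1A1 led at 69.4, followed by COL1A2 at 62.9, COL6A1 at 52.3, COL3A1 at 46.1 and COL4A1 at 30.6. The lead of the type I chains came from replicate 3, where COL1A1 reached 175 CPM per kilobase against 8.43 and 24.9 in replicates 1 and 2. Over replicates 1 and 2 alone COL6A1 led at 43.2, followed by COL11A1 at 25.4, COL4A1 at 21.1 and COL1A2 at 16.8.

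The enzymes, chaperones, receptors and partners of collagens were followed in 6 lists of 91 genes. Of the 76 tested, 25 rose and 14 fell, with a median log2 change of 0.18 against 0.08 for all genes tested. These are 32.9% and 18.4% of the list, against 39.8% and 36.8% of all genes tested, so 51.3% of the list changed in either direction against 76.6% of all genes. Without day 30 replicate 3, 23 fell. In the prolyl and lysyl modification list 2 of 14 rose (14.3%) and 4 fell (28.6%). In the folding and secretion list 3 of 12 rose (25%) and 5 fell (41.7%). The lists for propeptide removal and cross-linking (6 of 14 rose, 1 fell), degradation (5 of 13 rose, 2 fell), receptors (3 of 8 rose) and matrix partners (6 of 15 rose, 2 fell) held more rises than falls. Their shares rising, in that order 42.9%, 38.5%, 37.5% and 40%, were near the 39.8% of all genes tested. Their shares falling, 7.14%, 15.4%, 0% and 13.3%, were below the 36.8% of all genes tested.

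SERPINH1, the collagen-specific chaperone HSP47, stood at 456, 521 and 518 CPM on day 0 and at 22.7, 56.3 and 160 CPM on day 30. It fell in every library, by 2.67 on the log2 scale (adjusted p = 0.00073), and its day 30 libraries had the order of the type I chains. CRTAP, a part of the prolyl 3-hydroxylation complex, fell from a mean of 136 ± 28.6 to 39.6 ± 5.36 CPM (SD, n = 3), by 1.78 ± 0.17 on the log2 scale (adjusted p = 2.9e-06). PPIB, another part of that complex, stayed between 213 and 267 CPM with a log2 change of -0.03 (adjusted p = 0.839). P4HA2, a prolyl 4-hydroxylase subunit, rose from 12.4, 13.8 and 15 to 23, 37.2 and 46.1 CPM (log2 change 1.35 ± 0.23, adjusted p = 0.000289). FKBP7, a prolyl isomerase of the endoplasmic reticulum, had the largest rise of the folding list (log2 change 2.34, adjusted p = 2.94e-06).

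TLL1, a protease that removes propeptides, rose from 0.637, 1.16 and 0.615 to 12.7, 17.5 and 25.1 CPM, with a log2 change of 4.50 ± 0.37 (adjusted p = 9.68e-07). ADAMTS2, which removes the other propeptide of type I collagen, fell by 2.73 on the log2 scale (adjusted p = 0.000569). PXDN, which cross-links type IV collagen, had the highest CPM of its list, with a log2 change of -0.45 that did not pass (adjusted p = 0.0626), against -0.72 (adjusted p = 0.000585) without day 30 replicate 3. TIMP2, an inhibitor of matrix metalloproteinases, rose from a mean of 26.6 ± 4.87 to 272 ± 10.5 CPM (SD, n = 3), by 3.35 ± 0.14 on the log2 scale (adjusted p = 7.44e-09). MMP16, a membrane-bound metalloproteinase, rose from 72 ± 6.2 to 388 ± 17.3 CPM, by 2.43 ± 0.11 on the log2 scale (adjusted p = 1.36e-08). MMP9, a gelatinase, fell by 3.00 on the log2 scale (adjusted p = 7.92e-05).

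ADGRG1, a receptor of type III collagen in the developing brain, stood at 1.27, 1.89 and 0.984 CPM on day 0 and at 166, 156 and 166 CPM on day 30. The day 30 libraries were nearly equal although COL3A1 differed between them, and the log2 change was 6.89 ± 0.18 (adjusted p = 7.7e-10). ITGB1, the shared beta subunit of the collagen-binding integrins, had the highest CPM of the receptors and did not pass (log2 change -0.39, adjusted p = 0.147), except without day 0 replicate 1 (-0.60, adjusted p = 0.0339). FN1, fibronectin, stood at 343, 697 and 616 CPM on day 0 and at 346, 1759 and 8489 CPM on day 30. Its log2 change of 2.68 ± 0.84 (adjusted p = 0.0132) was 0.95 (adjusted p = 0.112) without day 30 replicate 3 and 2.39 (adjusted p = 0.0546) without day 0 replicate 1. POSTN, periostin, stood at 3.09, 19 and 144 CPM on day 30, and its log2 change of 3.62 ± 1.10 (adjusted p = 0.0112) was 1.41 (adjusted p = 0.0622) without that library. NID2, a basement membrane linker, fell by 2.45 on the log2 scale (adjusted p = 0.00161).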

How the data were processed

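The labels' protocols give TRIzol extraction, depletion of ribosomal RNA, the TruSeq Stranded Total RNA kit and NovaSeq sequencing. The submitters' processing notes name FastQC 0.11.9 and the build hg38. For aligner, counter, annotation and strand setting the sources used here say nothing. The authors deposited 1 table of expected counts, estimated counts that need not be whole, for 6 libraries (92.6% of values were whole). These were rounded, and genes were matched to GENCODE 29 by identifier (58280 of 61853 rows) for coordinates and exon length. Sequences came from RefSeq (GRCh38.p14).

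Counts were fitted with edgeR 4.0.16 (R 4.3.3): filterByExpr, TMM scaling, quasi-likelihood test of day 30 against day 0, 3 libraries a day, and Benjamini-Hochberg adjustment over 18040 genes with a threshold of 0.05. The standard error is the log2 change divided by the square root of F. The procedure was tested on simulated data in which no library of a day stood apart. That test cannot show how the procedure behaves for genes in which 1 library does, as in many collagens on day 30. Ratios of day 30 libraries used genes with at least 20 counts over the 3 libraries. Deposited totals of 5013643 to 12924842 counts mean that 3 counts in a library correspond to 0.227 to 0.566 CPM. Alternatives were other scalings, filters, DESeq2 1.42.0, a replicate block and leaving out each library.

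The genes, classes, pathway lists and marker lists were chosen with earlier results of these data known. Values per library are given in each class for the genes of highest mean CPM on each day and the called genes of largest rise and fall, and for the 5 genes of highest ratio in day 30 replicate 3. In each pathway list the called genes of largest rise and fall and the gene of highest mean CPM are named. All other collagen genes are named with their direction or their counts, and values of further ones were added.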

Additional observations from a re-analysis of the deposited data

How the results depend on the processing

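Across the 12 alternatives to the reported setting, 9 collagens were called higher in all (COL2A1, COL3A1, COL5A1, COL6A1, COL8A1, COL9A2, COL15A1, COL25A1, COL28A1) and 15 were called lower in all, while COL24A1 was called in none. Leaving out each library in turn gave 10 to 15 collagens higher and 15 to 21 lower. DESeq2 gave 11 higher, lost COL1A2, COL4A2 and COL19A1, and gave no adjusted p for COL6A3. Testing without a filter on low counts gave 16 higher. Of the pathway genes, 22 were lower without a filter and 35 were higher, and leaving out each library gave 13 to 23 lower and 21 to 33 higher, with 23 lower without day 30 replicate 3. The collagen share of counts on day 0 was 0.231% without COL4A1, the member of the highest count over both days together. The day 30 share ran from 0.221% to 0.59% when each library was left out. Changes of sign were found for COL6A2 (-0.08 without day 30 replicate 3, up to 0.72 with other libraries left out), COL6A3 (-5.13 without it, 1.06 at the other end of the range), COL5A3 (0.20 without day 30 replicate 1 and 0.19 without replicate 2, down to -3.28 without replicate 3) and PPIB (0.07 with total counts, from -0.15 to 0.06, among them 0.03, with a library left out). The cause was not tested. Scaling by total counts alone shifted the median log2 change over all genes by 0.09. The counts of 19 collagens above and 1 below in day 30 replicate 3 held under 2 other scalings, chosen after seeing the data.

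Replicate numbers are shared between the days. Deviations of same-numbered libraries from their day's mean correlated at 0.0746, -0.00402 and -0.0517, and not every library correlated best with its own number. With 3 libraries a day these values cannot settle whether the numbers pair the libraries, and the labels do not say. With a replicate block 13 collagens were higher and 18 lower, COL1A2 was lost, COL5A2 and COL12A1 were gained, and COL6A3 had a log2 change of -2.22.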

Other observations

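COL6A4P2, a pseudogene of a type VI chain on chromosome 3 (130212823 to 130273806) that the rule for collagen genes leaves out, stood at 1.91, 0.872 and 0.123 CPM on day 0 and at 5.97, 3.93 and 5.28 CPM on day 30. It rose by a log2 change of 2.36 ± 0.54 (edgeR, adjusted p = 0.00206), from 22 to 138 counts. Reads of near-identical copies could be split between rows by the counting, so this value is uncertain. MMP1, the interstitial collagenase, was chosen after its values were seen. It stood at 0.382, 69.2 and 2.34 CPM on day 0, with replicate 2 far above the others, and at 47, 51.2 and 40.2 CPM on day 30, and its log2 change of 0.98 did not pass (edgeR, adjusted p = 0.377).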
